A study of Homo sapiens with 108 samples.

Results

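HOX genes of the 4 clusters were followed on microarrays of 4 lymphoma cell lines treated with EPZ6438, a small molecule that inhibits the histone methyltransferase EZH2. A member was any gene of clusters HOXA to HOXD for which at least 1 probe set named that gene alone, and each gene was read from the probe set with the highest mean signal over all arrays. That rule gave 28 of 19775 genes measured, read by 44 probe sets: 1 HOXA gene (HOXA2, chromosome 7), 10 HOXB genes (chromosome 17), 9 HOXC genes (chromosome 12) and 8 HOXD genes (chromosome 2). The other HOXA genes, and HOXD3, were not analysed here. All 28 passed the filter on dim genes in every line, a log2 intensity of at least 4 on at least 3 arrays.

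The lines WSU-DLCL2, SU-DHL6 and Karpas422 carry an EZH2 Y641 mutation by their labels and are called the Y641 lines below, and Pfeiffer is labelled as lacking it. Cells of each line received DMSO, the solvent control, or EPZ6438 at a dose called LCC, set for each line, or at 10xLCC, for 2, 4 or 6 days, with 3 arrays (A, B and C) in each of the 36 groups. The labels state no concentration for LCC, so equal dose names need not be equal concentrations across lines. The labels do not say whether A, B and C came from separate cultures, so p-values measure the spread between these samples, which may be technical.

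HOX proteins are homeodomain transcription factors that set position along the body axis, and their genes lie in 4 clusters in which neighbours share a direction of transcription. Low-numbered genes are used in the head and upper trunk, high-numbered genes in the lower trunk, limbs and urogenital tract, and blood cells use mainly genes of the HOXA, HOXB and HOXC clusters. EZH2 is the catalytic subunit of Polycomb repressive complex 2, which methylates histone H3 on silent HOX genes, and the Y641 mutation raises its output of the fully methylated form. HOX proteins bind DNA together with PBX and MEIS proteins, their cofactors.

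CpG-rich promoter sequence is what Polycomb complexes occupy, and promoters of HOXC4, HOXC5 and HOXD13 are printed here to show their CG content. The RefSeq table of GRCh38.p14 held a promoter, 250 bases before to 50 bases after the annotated start, for 11 of the 28 members. HOXC4, a gene called higher in all 3 Y641 lines at day 6 of 10xLCC, and HOXC5, which did not rise in any line, share 1 entry in it, on the plus strand at chr12:54016638-54016937. HOXD13, at the far end of the HOXD cluster, is on the plus strand at chr2:176092471-176092770. The sequences run 5′ to 3′ on the coding strand, and capitals mark each CG.
HOXC4 and HOXC5: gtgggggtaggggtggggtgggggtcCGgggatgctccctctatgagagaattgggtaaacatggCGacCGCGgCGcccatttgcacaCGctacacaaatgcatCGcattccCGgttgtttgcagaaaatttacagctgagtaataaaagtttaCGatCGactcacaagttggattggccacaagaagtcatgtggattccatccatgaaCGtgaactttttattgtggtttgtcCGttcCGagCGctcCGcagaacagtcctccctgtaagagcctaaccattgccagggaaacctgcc
HOXD13: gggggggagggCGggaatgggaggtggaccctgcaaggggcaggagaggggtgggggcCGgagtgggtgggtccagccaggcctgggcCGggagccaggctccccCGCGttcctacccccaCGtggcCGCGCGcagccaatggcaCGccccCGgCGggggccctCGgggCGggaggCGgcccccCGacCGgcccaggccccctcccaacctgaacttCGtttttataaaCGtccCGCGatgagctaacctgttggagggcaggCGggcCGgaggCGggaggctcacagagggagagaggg
The HOXC4 and HOXC5 window holds 15 CG in 300 bases, at 51.7% G or C. The HOXD13 window holds 24 CG, at 74.0% G or C. The 11 entries are 10 distinct windows, since HOXC4 and HOXC5 share theirs. The median was 21 CG over these 10 and 14 over the 35116 promoters of the table, where shared windows were not merged. The HOXC4 and HOXC5 window is thus near the median of all promoters in CG. Median G or C was 59.0% over the 10 and 58.7% over all promoters. CCAAT on either strand was found in 8 of the 10 HOX windows and in 34.6% of all promoters, TATAAA in 1 and in 11.5%, and CACGTG in 4 and in 7.3%. The 3 motifs were searched on both strands, none is contained in another, and the counts describe letters, not binding.

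Signals are given as log2 of the deposited GCRMA intensity, groups as mean ± SD (n = 3 arrays), and changes as the difference of log2 group means ± SE from a limma model over the 27 arrays of a line. A gene was called when its Benjamini-Hochberg adjusted p over all genes of the fit was below 0.05. Array medians lay between log2 6.25 and 6.45. The median distance of an array from its group mean, over genes, was 0.175, and it was 0.706 for Pfeiffer LCC day 6 replicate B and 0.468 for SU-DHL6 DMSO day 2 replicate A. Of 9 B-cell markers measured, all 9 read at least log2 8 on every array of each Y641 line, and 7 did in Pfeiffer. The T-cell, myeloid and stem-cell lists had median untreated signals of 5.21 to 6.50. In Pfeiffer, 1 T-cell gene read at least log2 8 on all arrays, and CD34, KIT and the other stem-cell genes had a highest untreated mean of 7.51. The highest untreated mean of the T-cell list was 13.37 in Pfeiffer and 8.85 in Karpas422. Untreated means of the fibroblast and epithelial list reached 13.61 in Karpas422, 11.94 in Pfeiffer, 8.83 in SU-DHL6 and 8.81 in WSU-DLCL2. With DMSO at day 6, DCN of that list read 13.36 in Karpas422 and EPCAM 11.97 in Pfeiffer. At day 6, 8, 6 and 8 of the 9 B-cell markers rose with 10xLCC in WSU-DLCL2, SU-DHL6 and Karpas422, among them BLNK, an adaptor of B-cell receptor signalling, by 1.12 ± 0.09, 0.71 ± 0.08 and 1.06 ± 0.09 (log2 change ± SE, limma). Of the fibroblast and epithelial genes 3 of 10 rose in WSU-DLCL2, among them DCN by 2.88 ± 0.11, 1 of 9 rose in Karpas422 and 1 of 10 fell in SU-DHL6. Of all genes 17.0%, 19.8% and 18.4% rose and 19.2%, 26.7% and 19.2% fell in WSU-DLCL2, SU-DHL6 and Karpas422. A measure of RNA integrity given below differed between the groups compared in SU-DHL6 and Karpas422. The marker lists were not fitted with it as a covariate.

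In untreated cells, HOXB4, HOXB7 and HOXC4 were the HOX genes that read at least log2 8 on all 9 arrays of a line. HOXB4, which supports self-renewal of blood stem cells, did so in all 4 lines. HOXB7 did so in 3 lines, not in SU-DHL6, and HOXC4 in 3 lines, not in WSU-DLCL2. No HOXA or HOXD gene did so in any line. Genes of other organs, such as prolactin and cardiac myosin, had median untreated signals of 5.68 to 5.82, and 16 of them were measured. The list is not dim throughout: 1 of the 16, the surfactant gene SFTPC, read at least log2 8 on all arrays of each line. Signals of different probe sets are not on 1 scale, so they give no order of abundance between genes.

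The lines differed in 17 of the 28 HOX genes (limma moderated F over the 36 DMSO arrays), and 70.5% of all genes tested differed. HOXC4, which in B cells drives the gene for activation-induced deaminase, varied most. Its 9 untreated arrays ran from 6.36 through a median of 6.59 to 7.07 in WSU-DLCL2 and from 8.13 through 8.25 to 8.37 in SU-DHL6. In Pfeiffer they ran from 8.66 through 8.80 to 8.97, and in Karpas422 from 8.82 through 9.10 to 9.29. WSU-DLCL2 thus lay below every array of the other lines, and only Karpas422 and Pfeiffer overlapped. The means were 5.22-fold apart between Karpas422 and WSU-DLCL2 (log2 2.38), and each of the 6 pairs of lines passed the test, the closest being Karpas422 above Pfeiffer by 0.26 ± 0.06.

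HOXB7, a gene linked to cell growth and often raised in cancers, ran from 7.18 through 7.97 to 8.23 on the untreated arrays of SU-DHL6, from 8.05 through 8.37 to 8.45 in WSU-DLCL2, from 9.17 through 9.35 to 9.54 in Pfeiffer and from 9.65 through 9.74 to 9.93 in Karpas422. Karpas422 lay above every array of the other lines, SU-DHL6 and WSU-DLCL2 overlapped, and all 6 pairs passed. HOXC6, a mid-trunk gene, was highest in Pfeiffer, where its arrays ran from 6.84 through 7.27 to 7.50. It ran from 5.59 through 5.88 to 6.08 in WSU-DLCL2, from 5.67 through 5.88 to 6.16 in Karpas422 and from 5.17 through 5.45 to 5.68 in SU-DHL6. Pfeiffer did not overlap any Y641 line, at 1.30 ± 0.07 above Karpas422 (limma, adjusted p = 1.2e-16), while WSU-DLCL2 and Karpas422 differed by 0.04, within their spread (adjusted p = 0.7).

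Smaller ranges of the line means were found for HOXC11 (0.79), HOXB6 (0.67), HOXA2 (0.57), HOXB4 (0.52) and HOXD13 (0.46). HOXC11 and HOXD13 belong to the lower-trunk and limb genes, and both were highest in Pfeiffer, as were HOXB6 and HOXB4. HOXC11 ran from 7.65 through 8.13 to 8.46 in Pfeiffer, from 7.39 through 7.62 to 7.97 in WSU-DLCL2, from 6.88 through 7.46 to 7.69 in SU-DHL6 and from 7.14 through 7.33 to 7.54 in Karpas422. HOXB6 ran from 5.44 through 5.71 to 5.99 in Pfeiffer and between 4.77 and 5.44 in the Y641 lines. Their medians were 5.19 in Karpas422, 5.11 in SU-DHL6 and 4.96 in WSU-DLCL2, and no pair of the 3 passed the test for HOXB6. HOXB4 ran from 8.85 through 9.04 to 9.22 in Pfeiffer, from 8.72 through 8.86 to 8.99 in Karpas422, from 8.55 through 8.70 to 8.82 in WSU-DLCL2 and from 8.34 through 8.52 to 8.77 in SU-DHL6. Neighbouring lines overlapped for HOXB4, yet all 6 pairs passed the test. HOXD13 ran from 6.29 through 6.50 to 6.92 in Pfeiffer, from 5.99 through 6.33 to 6.59 in SU-DHL6, from 5.90 through 6.09 to 6.29 in Karpas422 and from 5.77 through 6.05 to 6.31 in WSU-DLCL2, and the last pair did not differ beyond their spread. HOXA2, which patterns the second pharyngeal arch, was dim throughout: 4.86 through 5.09 to 5.42 in WSU-DLCL2, 4.45 through 4.73 to 4.89 in SU-DHL6, 4.46 through 4.75 to 4.86 in Karpas422 and 4.38 through 4.51 to 4.76 in Pfeiffer.

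**Figure D1:**
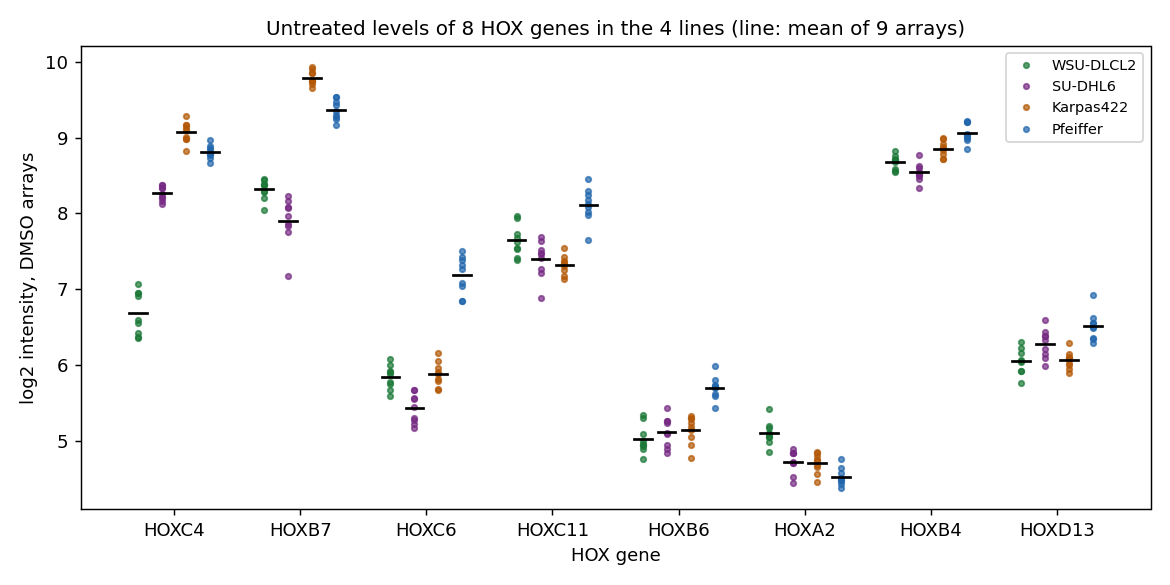
Log2 intensity (vertical axis) on the 9 DMSO arrays of each line for the 8 HOX genes with the largest range of line means among those called, with points for arrays and black lines for means. HOXC4 in WSU-DLCL2, with a mean of 6.69, lies below the other 3 lines, and HOXC6 in Pfeiffer, with a mean of 7.19, lies above them.

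Over the days of untreated culture few HOX genes moved. From day 2 to day 6 of DMSO, 0 HOX genes were called in WSU-DLCL2, against 12.1% of all genes, with 5 HOX genes at an unadjusted p below 0.05. In SU-DHL6 1 was called, against 3.55% of all genes: HOXC11 rose by 0.41 ± 0.11, and that call was lost without DMSO day 2 replicate A (an alternative added after the data were seen), without any 1 of the replicates A, B and C across the line, or with arrays centred on bright genes. In Pfeiffer 0 were called by limma, against 0.00528%, with 1 at an unadjusted p below 0.05. In Karpas422 2 were called, against 31.4%: HOXB3 rose by 0.67 ± 0.19 and HOXD10 by 0.32 ± 0.11. The 3′ to 5′ log2 ratio of the beta-actin control probe sets, a measure of RNA integrity, was 1.25 ± 0.22 in Karpas422 DMSO at day 6 and -0.03 ± 0.04 at day 2. With that ratio as a covariate both Karpas422 calls were lost and 1 other gene was called, and without replicate B 0 were called. Centring arrays on bright genes moved the share of these untreated calls that were rises, over all genes, from 30.2% to 41.4% in WSU-DLCL2, from 83.6% to 48.6% in SU-DHL6 and from 48.1% to 65.4% in Karpas422, and gave 6 HOX rises in Karpas422. The share of all genes that rose there under centring is not given here, so the count of 6 has no yardstick.

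At day 6 of 10xLCC, the longest exposure to the higher dose, few HOX genes carried the rises called in the Y641 lines. They were HOXB3, HOXB4, HOXB5, HOXB7, HOXC4 and HOXC6, not each in every line. Most HOXB and HOXC genes did not rise. HOXA2, the only HOXA gene analysed, and the HOXD genes were not called as rises. In WSU-DLCL2 5 of 28 rose and 0 fell, while 17.0% of all genes rose and 19.2% fell. In Karpas422 6 rose and 1 fell, against 18.4% and 19.2%. In SU-DHL6 3 rose and 6 fell, against 19.8% and 26.7%. In Pfeiffer 0 rose and 0 fell by limma, against 0.164% and 0.0581%, and 2 HOX genes had an unadjusted p below 0.05. The WSU-DLCL2 count was 3 without DMSO day 6 replicate C, and that of SU-DHL6 was 4 without DMSO day 6 replicate B. The shares of all genes in the fits without these arrays are not given here. With all arrays, the counts of HOX genes that rose or fell are thus near or below the shares of all genes in each line. HOXB3, HOXB7 and HOXC4 rose in all 3 Y641 lines, with calls for HOXB7 and HOXC4 that some left-out arrays ended as given for each gene, as did 1206 of the 18721 genes tested in all 3, and no HOX gene fell in all 3, as 1606 genes did.

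The median change of the 28 at day 6 of 10xLCC was 0.05 in Karpas422, -0.08 in SU-DHL6, 0.08 in WSU-DLCL2 and -0.05 in Pfeiffer, beside -0.03, -0.11, 0.02 and 0.02 for all genes. Centring each array on the genes above log2 8 on all arrays shifted the median of all genes by 0.16, 0.16 and 0.23 in WSU-DLCL2, SU-DHL6 and Karpas422. It moved the share of calls that were rises from 47.0% to 67.5%, from 42.5% to 64.3% and from 48.8% to 73.0%. The HOX counts then became 8 rises and 0 falls in Karpas422, 4 and 0 in SU-DHL6, and 7 and 0 in WSU-DLCL2. The shares of all genes that rose or fell under centring are not given here, so these HOX counts have no yardstick.

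**Figure D2:**
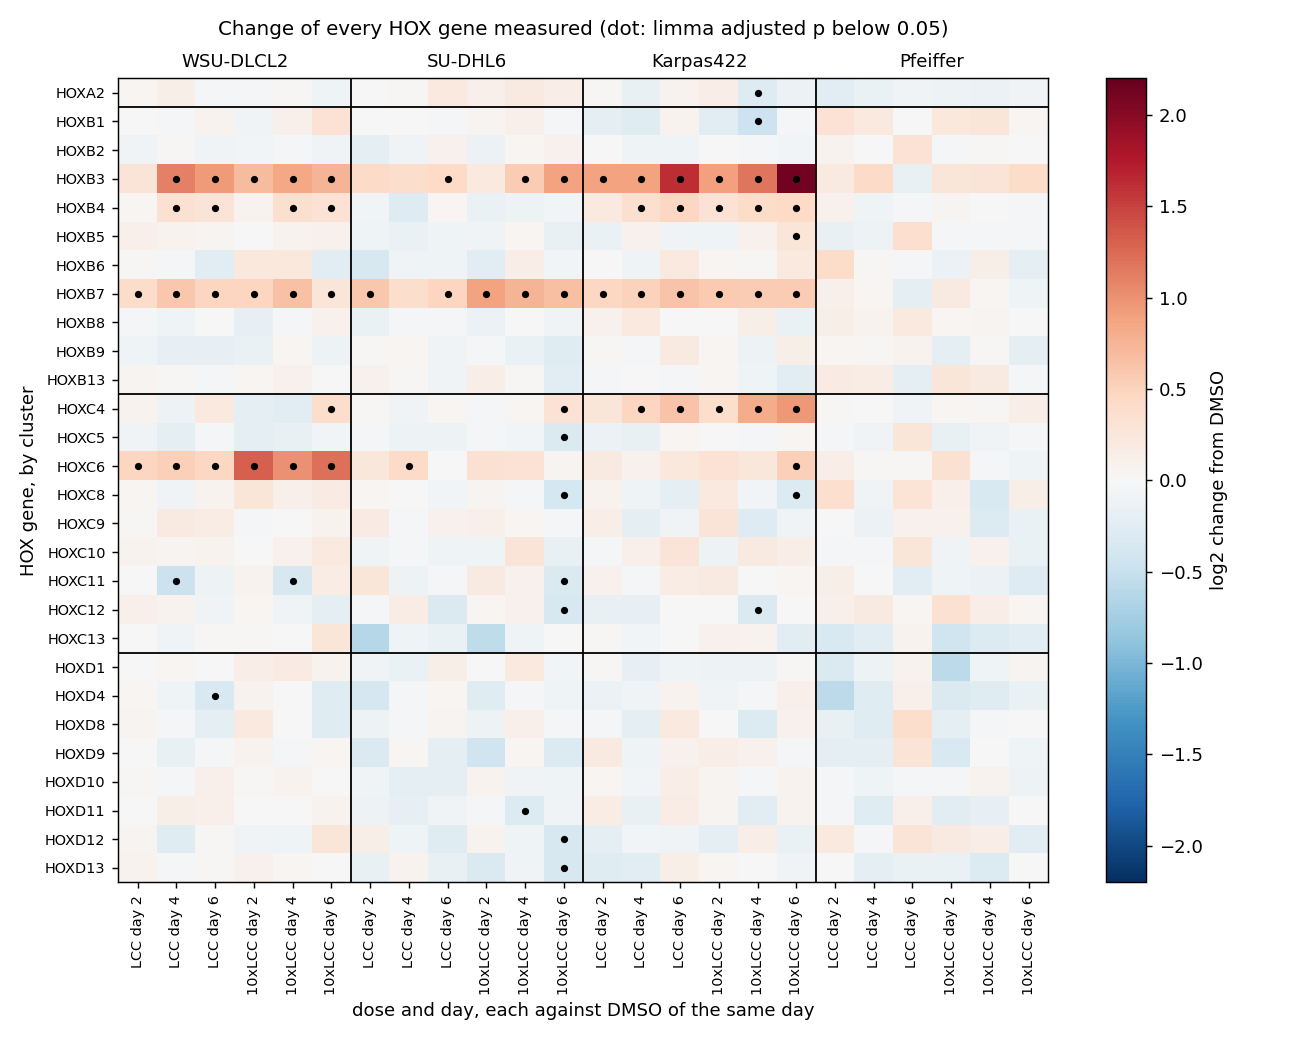
Log2 change from DMSO of the same day (colour, red for higher and blue for lower) for the 28 HOX genes (rows, by cluster) in each line, dose and day (columns); a dot marks a limma adjusted p below 0.05. Dots of rises gather on HOXB3, HOXB4, HOXB7, HOXC4 and HOXC6 in the Y641 lines, and Pfeiffer has no dot.

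HOXB3, a hindbrain gene also used in early blood cells, rose most in Karpas422. At day 6 its DMSO arrays there read 7.50, 7.30 and 7.42, its LCC arrays 8.75, 9.04 and 9.31, and its 10xLCC arrays 9.19, 9.60 and 9.78. Every treated array lay above every DMSO array, and LCC and 10xLCC overlapped. The rise was 4.34-fold at 10xLCC (log2 2.12 ± 0.19, limma adjusted p = 9.8e-10) and 3.09-fold at LCC (1.63 ± 0.19, adjusted p = 5.1e-07). It was smaller earlier, at 0.91 ± 0.19 at day 2 and 1.17 ± 0.19 at day 4 of 10xLCC, days on which the beta-actin ratio of the 10xLCC group was 0.16 ± 0.11 and 0.03 ± 0.05. At day 6 that ratio was 2.25 ± 0.51 with 10xLCC, 2.37 ± 1.22 with LCC and 1.25 ± 0.22 with DMSO, and with it as a covariate the day 6 change was 1.89.

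In WSU-DLCL2 the day 6 HOXB3 arrays read 7.13, 6.90 and 7.15 with DMSO, 7.91, 8.05 and 8.03 with LCC, and 7.94, 7.57 and 7.92 with 10xLCC. Both doses lay above DMSO without overlap, by 0.93 ± 0.17 and 0.75 ± 0.17 (limma adjusted p = 9.2e-05 and 7.3e-04). In SU-DHL6 they read 7.07, 7.02 and 7.04 with DMSO, 7.43, 7.27 and 7.72 with LCC, and 7.95, 7.77 and 8.05 with 10xLCC. The 3 SU-DHL6 groups did not overlap, and the change was 0.43 ± 0.13 at LCC and 0.88 ± 0.13 at 10xLCC. In Pfeiffer they read 6.68, 6.75 and 6.97 with DMSO, 6.77, 6.22 and 6.94 with LCC and 7.15, 7.20 and 7.26 with 10xLCC. The 10xLCC arrays of Pfeiffer lay above its DMSO arrays too, by 0.40 ± 0.16, but this did not pass the test (adjusted p = 0.71).

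These HOXB3 values rest on 1 of its 2 probe sets. The brighter one gave the changes above, while the second read 7.08 ± 0.14 with 10xLCC and 7.00 ± 0.13 with DMSO in Karpas422 at day 6, a difference of 0.09 with overlapping arrays. In SU-DHL6 the second probe set differed by -0.14 and in WSU-DLCL2 by 0.23, again with overlap. The mean of both probe sets changed by 1.10 in Karpas422, 0.37 in SU-DHL6 and 0.49 in WSU-DLCL2. That mean contains the brighter probe set, so it is no separate check of the rise. Why the probe sets differ was not tested.

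HOXB7 rose with 10xLCC in each Y641 line at all 3 days. Its day 6 arrays in Karpas422 read 9.71, 9.65 and 9.74 with DMSO, 10.23, 10.30 and 10.45 with LCC, and 10.26, 10.25 and 10.24 with 10xLCC. Both doses lay above DMSO and overlapped each other, at 0.63 ± 0.09 and 0.55 ± 0.09. In SU-DHL6 they read 7.83, 7.75 and 8.07 with DMSO, 8.36, 8.38 and 8.33 with LCC and 8.57, 8.55 and 8.50 with 10xLCC, in 3 separate bands. The SU-DHL6 changes were 0.48 ± 0.14 and 0.66 ± 0.14 (limma adjusted p = 0.021 and 4.7e-04). In WSU-DLCL2 they read 8.38, 8.39 and 8.29 with DMSO, 8.79, 8.97 and 8.76 with LCC and 8.69, 8.43 and 8.74 with 10xLCC. The WSU-DLCL2 rise was 0.48 ± 0.08 at LCC and 0.26 ± 0.08 at 10xLCC, and the latter call was lost without DMSO replicate C (0.23), 10xLCC replicate A (0.23) or 10xLCC replicate C (0.20) and with the mean of the probe sets (0.16).

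HOXB7 had risen by day 2 of 10xLCC in each Y641 line, by 0.57 ± 0.09 in Karpas422, 0.89 ± 0.14 in SU-DHL6 and 0.47 ± 0.08 in WSU-DLCL2. In SU-DHL6 the day 2 arrays read 7.18, 7.86 and 8.17 with DMSO and 8.62, 8.64 and 8.63 with 10xLCC. The lowest, DMSO replicate A, is the array far from its group mean over genes, and it enlarges that change. At day 4 the changes of HOXB7 in Karpas422, SU-DHL6 and WSU-DLCL2 were 0.55 ± 0.09, 0.74 ± 0.14 and 0.65 ± 0.08. All 3 of its probe sets were higher with 10xLCC in these 6 comparisons. At day 6 the dimmest of them differed by 0.55 in Karpas422, without overlap, but by 0.02 in SU-DHL6 and -0.04 in WSU-DLCL2, both with overlapping arrays. In Pfeiffer the day 6 arrays read 9.30, 9.27 and 9.24 with DMSO, 9.29, 8.67 and 9.25 with LCC, and 9.21, 9.18 and 9.10 with 10xLCC. The 10xLCC arrays of Pfeiffer lay just below DMSO, at -0.10 ± 0.12, which did not pass the test.

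**Figure D3:**
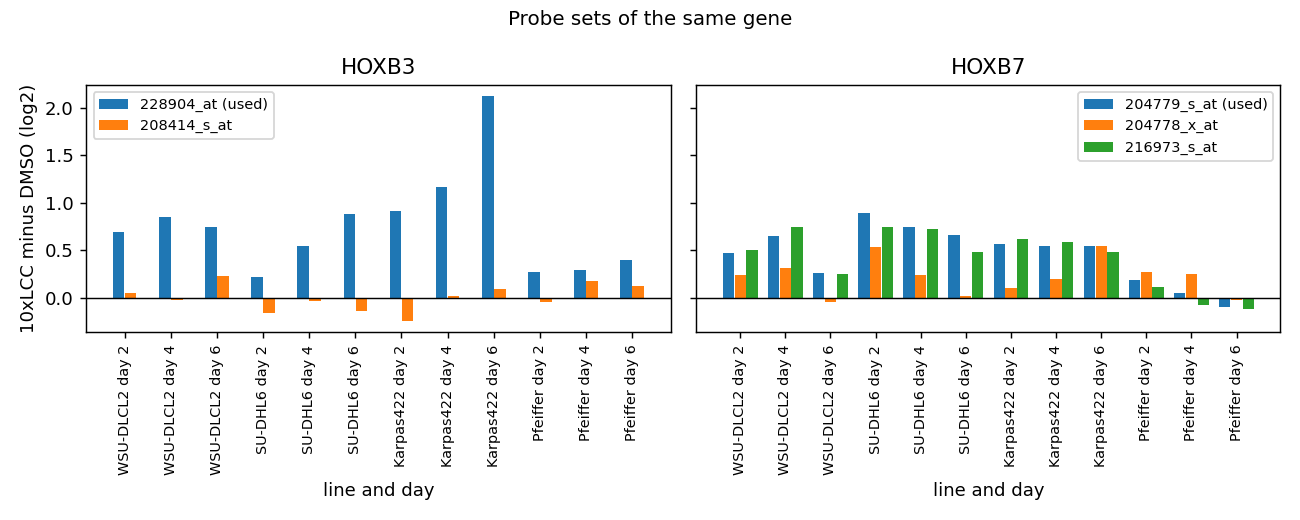
Difference of 10xLCC and DMSO group means (log2, vertical axis; 3 arrays each) for each probe set of HOXB3 and HOXB7 in each line and day. The bars of the HOXB3 probe set used here reach 2.12 while those of its second probe set stay between -0.24 and 0.23.

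HOXB4 moved with HOXB3 in 2 of the Y641 lines. At day 6 it read 8.68, 8.55 and 8.70 with DMSO in WSU-DLCL2, 8.84, 9.03 and 8.93 with LCC and 8.86, 9.10 and 8.91 with 10xLCC. In Karpas422 it read 8.99, 8.98 and 8.91 with DMSO, 9.31, 9.44 and 9.48 with LCC and 9.43, 9.48 and 9.27 with 10xLCC. Treated arrays lay above DMSO in both lines with the doses overlapping, and the 10xLCC change was 0.31 ± 0.08 (limma adjusted p = 0.0019) and 0.43 ± 0.08 (5.8e-05). The WSU-DLCL2 call was lost without replicate B of all groups of the line. In SU-DHL6 HOXB4 read 8.49, 8.63 and 8.34 with DMSO, 8.46, 8.61 and 8.53 with LCC, and 8.49, 8.25 and 8.52 with 10xLCC, fully overlapping. In Pfeiffer it read 8.97, 9.04 and 9.01 with DMSO and 8.89, 9.04 and 8.97 with 10xLCC. At day 4 of 10xLCC the change was 0.36 ± 0.08 in WSU-DLCL2 and 0.40 ± 0.08 in Karpas422.

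HOXB5, a marker of long-lived blood stem cells in mice, was called against DMSO in Karpas422 at day 6 of 10xLCC and in no other line, dose or day. Its arrays read 6.83, 7.12 and 7.03 with DMSO, 6.94, 6.90 and 6.88 with LCC and 7.21, 7.41 and 7.18 with 10xLCC. The 10xLCC arrays lay above both other groups, by 0.27 ± 0.09 over DMSO (limma adjusted p = 0.023). That call was lost without DMSO replicate A (0.19), without 10xLCC replicate B (0.20), with the mean of its probe sets (0.20) and with the beta-actin covariate (0.26).

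HOXC4 was called higher with 10xLCC at day 6 alone in WSU-DLCL2 and SU-DHL6 and from day 2 in Karpas422. Its day 6 arrays in Karpas422 read 8.98, 9.10 and 8.82 with DMSO, 9.62, 9.53 and 9.63 with LCC and 9.99, 9.85 and 9.91 with 10xLCC. The groups formed 3 steps with no overlap, 0.63 ± 0.10 and 0.95 ± 0.10 above DMSO (limma adjusted p = 2.2e-05 and 7.8e-09). The 10xLCC change was 0.39 ± 0.10 at day 2 and 0.81 ± 0.10 at day 4, when the beta-actin ratios of DMSO and 10xLCC were -0.01 ± 0.10 and 0.03 ± 0.05. In SU-DHL6 HOXC4 read 8.16, 8.22 and 8.33 with DMSO, 8.24, 8.31 and 8.30 with LCC and 8.66, 8.50 and 8.46 with 10xLCC, so the higher dose alone stood above, by 0.31 ± 0.09. That call was lost without replicate A of all groups of the line (0.21, limma adjusted p = 0.11), without replicate B (0.32, adjusted p = 0.061) and with the beta-actin covariate (0.20, adjusted p = 0.65). In WSU-DLCL2 it read 6.59, 6.37 and 6.36 with DMSO, 6.51, 6.80 and 6.64 with LCC and 6.73, 6.92 and 6.86 with 10xLCC. The rise there was 0.39 ± 0.14 (limma adjusted p = 0.035), and it lost its call without either DMSO replicate B (0.36), DMSO replicate C (0.35), 10xLCC replicate B (0.35) or 10xLCC replicate C (0.38). At days 2, 4 and 6 the WSU-DLCL2 means were 6.64, 6.98 and 6.44 with DMSO and 6.45, 6.73 and 6.84 with 10xLCC. The 10xLCC mean was thus below DMSO at days 2 and 4, and at day 6 it was still below the DMSO mean of day 4. In Pfeiffer HOXC4 read 8.89, 8.73 and 8.66 with DMSO and 8.83, 9.01 and 8.87 with 10xLCC, overlapping.

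HOXC6 gave the clearest response to dose, in WSU-DLCL2. Its day 6 arrays there read 5.59, 5.68 and 5.75 with DMSO, 6.08, 6.29 and 6.04 with LCC and 6.83, 6.88 and 6.93 with 10xLCC. The groups were separate, with LCC 1.38-fold and 10xLCC 2.31-fold above DMSO (log2 0.46 ± 0.11 and 1.21 ± 0.11, limma adjusted p = 0.0025 and 3.1e-09). The same order held at day 2, with 0.47 ± 0.11 and 1.32 ± 0.11, and at day 4, with 0.53 ± 0.11 and 1.01 ± 0.11. In Karpas422 HOXC6 read 6.06, 6.16 and 5.97 with DMSO, 5.96, 6.28 and 6.67 with LCC and 6.31, 6.80 and 6.68 with 10xLCC. That 10xLCC change of 0.53 ± 0.13 was 0.21 with the beta-actin covariate and lost its call (limma adjusted p = 0.094). The call was also lost without replicate B of all groups of the line. In SU-DHL6 HOXC6 read 5.57, 5.68 and 5.45 with DMSO and 5.56, 5.72 and 5.60 with 10xLCC, and it was called there once, at day 4 of LCC (0.42 ± 0.13), with overlapping arrays. In Pfeiffer, whose untreated signal was the highest, it read 7.08, 7.05 and 6.84 with DMSO, 7.03, 6.99 and 7.00 with LCC and 6.71, 6.94 and 7.03 with 10xLCC.

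**Figure D4:**
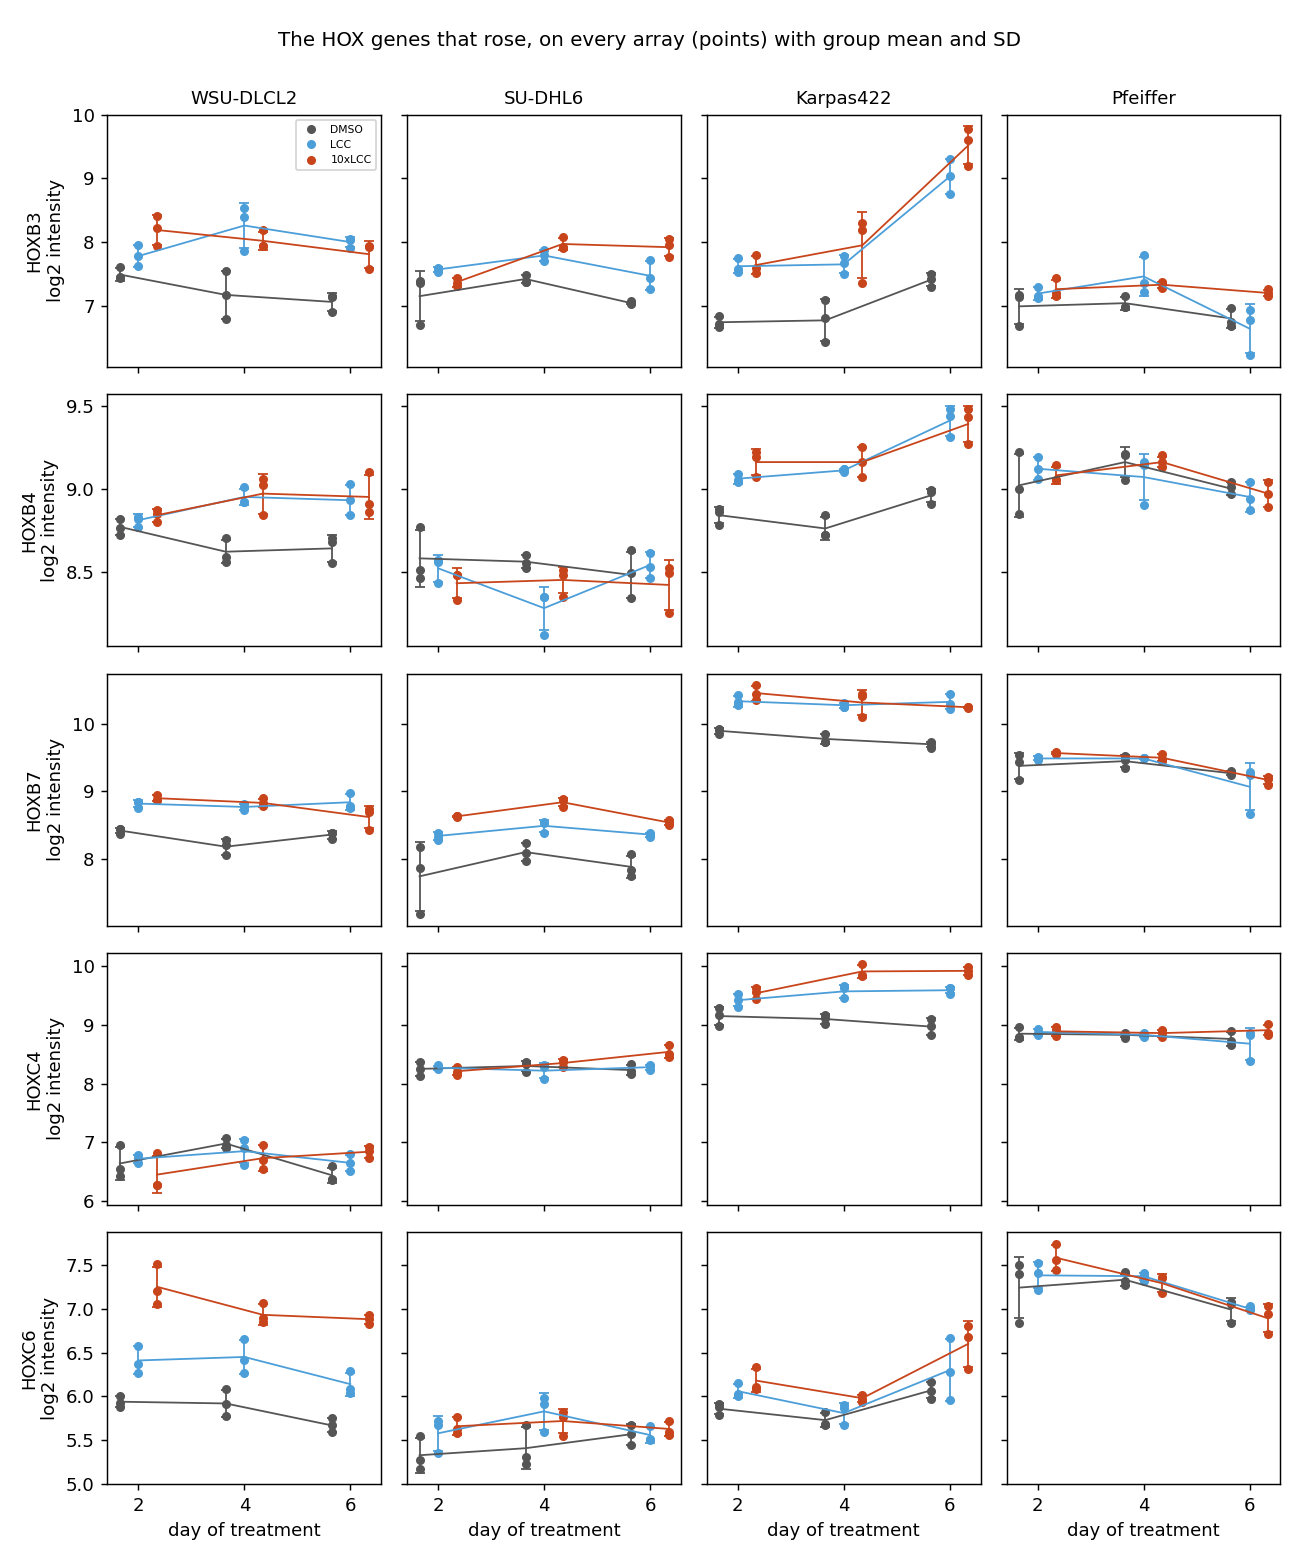
Log2 intensity on each array (points) with group mean and SD (lines and bars, n = 3) by day of treatment for HOXB3, HOXB4, HOXB7, HOXC4 and HOXC6 in the 4 lines, with DMSO grey, LCC blue and 10xLCC red. HOXB3 in Karpas422 climbs to 9.52 at day 6 of 10xLCC, HOXC6 in WSU-DLCL2 separates by dose at each day, and in Pfeiffer no dose was called against DMSO for any of the 5.

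Falls of HOX genes were small, and the genes that fell at day 6 read below log2 7.7 on the arrays compared. In SU-DHL6 at day 6 of 10xLCC the mid-trunk genes HOXC5 and HOXC8, the lower-trunk genes HOXC11 and HOXC12, and the limb and digit genes HOXD12 and HOXD13 fell, by 0.32, 0.39, 0.32, 0.35, 0.36 and 0.36. HOXC5 read 7.35, 7.52 and 7.31 with DMSO and 7.06, 7.09 and 7.07 with 10xLCC, with no overlap. HOXC8 read 6.08, 6.37 and 6.37 with DMSO and 5.62, 6.15 and 5.88 with 10xLCC, and these overlapped. HOXC11 read 7.46, 7.64 and 7.48 and then 7.29, 7.14 and 7.21, without overlap. The other 3 did not overlap either. HOXC12 read 6.01, 6.04 and 5.76 with DMSO and 5.40, 5.65 and 5.69 with 10xLCC. HOXD12 read 4.39, 4.60 and 4.48 with DMSO and 4.24, 3.94 and 4.20 with 10xLCC. HOXD13 read 6.22, 6.59 and 6.38 with DMSO and 6.15, 5.92 and 6.04 with 10xLCC. At LCC none of these 6 passed the test in SU-DHL6. Leaving out single arrays of day 6 ended 5 of these calls. HOXC8 lost its call without DMSO replicate B (-0.34) or C (-0.34) and without 10xLCC replicate A (-0.26) or C (-0.39). HOXC11 lost it without DMSO replicate B (-0.26) and without 10xLCC replicate B (-0.28) or C (-0.32), and HOXC12 without DMSO replicate A (-0.32) or B (-0.30) and without 10xLCC replicate A (-0.26). HOXD12 lost it without DMSO replicate B (-0.31) or C (-0.37) and without 10xLCC replicate B (-0.27), and HOXD13 without DMSO replicate B (-0.26). HOXC5 kept its call without any 1 of the 6 arrays, but lost it without replicate B of all groups of the line.

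Genes of other lists fell in the same samples, where 26.7% of all genes fell. Of 16 genes of other organs 4 fell in SU-DHL6 at day 6 of 10xLCC and 0 rose, with a median change of -0.19. They were not all dim: SFTPC fell by 0.47, from a mean of 8.87 to 8.40. Of the fibroblast and epithelial genes the 1 that fell was the collagen gene COL1A1, by 0.39, also from 8.87. In SU-DHL6, of 7 T-cell and 10 myeloid genes tested 4 and 4 fell, with medians of -0.31 and -0.25. The beta-actin ratio was 0.34 ± 0.13 with 10xLCC, -0.03 ± 0.15 with LCC and -0.18 ± 0.03 with DMSO. With that ratio as a covariate the 9 HOX calls of SU-DHL6 became 0, as calls over all genes went from 8785 to 1675. HOXB3 then changed by 0.55 (limma adjusted p = 0.3), HOXB7 by 0.75 (0.19) and HOXC4 by 0.20 (0.65). In this line the ratio moved with the treatment, so this fit cannot tell their parts apart, and its errors were wider. HOXB7 had changed by 0.66 without the covariate, and the SE of the cofactor MEIS1 went from 0.16 to 0.34 with it. With arrays centred on bright genes none of the 6 falls was called, and without DMSO day 6 replicate B 4 HOX genes were called, 1 of them a fall. At day 4 of 10xLCC, with ratios of -0.05 ± 0.03 and -0.12 ± 0.02 for 10xLCC and DMSO, HOXB3 rose by 0.55 ± 0.13 and HOXB7 by 0.74 ± 0.14, and none of the 6 fell. The part of RNA integrity and of array background in the day 6 values was not tested beyond these fits.

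In the other lines falls were scattered. HOXC8 fell by 0.30 in Karpas422 at day 6 of 10xLCC, from 6.07, 6.08 and 6.18 with DMSO to 5.80, 5.95 and 5.66, and that call was lost when any 1 of 5 arrays was left out (DMSO replicate A, B or C, or 10xLCC replicate A or C, -0.32 to -0.23). HOXD4, which marks the boundary of hindbrain and neck, fell by 0.33 in WSU-DLCL2 at day 6 of LCC, from 5.81, 6.22 and 6.07 to 5.77, 5.74 and 5.60. At 10xLCC HOXD4 read 5.57, 5.80 and 5.93 and did not pass the test. HOXC11 fell in WSU-DLCL2 at day 4, by 0.48 at LCC and 0.35 at 10xLCC. At day 4 of 10xLCC HOXA2, HOXB1 and HOXC12 fell in Karpas422 by 0.29, 0.46 and 0.31, and HOXD11 fell in SU-DHL6 by 0.30. The second HOXB1 probe set moved the other way.

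Over the 6 comparisons of a dose with DMSO, 10 HOX genes were called at least once in Karpas422, 11 in SU-DHL6, 7 in WSU-DLCL2 and 0 in Pfeiffer by limma, beside 46.1%, 53.7%, 53.3% and 0.269% of all genes. In Pfeiffer 12 HOX genes had an unadjusted p below 0.05 in at least 1 of the 6. The share of all genes at that unadjusted threshold is not given here, so this count of 12 has no yardstick either. The comparisons of LCC and 10xLCC at a day share their DMSO arrays. The SU-DHL6 count was 3 without replicate B, 6 without A, 7 without C, 6 with arrays centred on bright genes and 3 with the beta-actin covariate, and the Karpas422 count was 6 without replicate A and 5 without B. The shares of all genes called at least once in these alternatives are not given here. Against DMSO of the same day 12 genes were called in no line at either dose: HOXB2, HOXB6, HOXB8, HOXB9, HOXB13, HOXC9, HOXC10, HOXC13, HOXD1, HOXD8, HOXD9 and HOXD10. Their changes ran from -0.63 to 0.41 and their group means from 4.56 to 7.13. The share of all genes called in no line was not computed, so the count of 12 has no yardstick. HOXB13, a prostate and lower-trunk gene, had group means between 5.05 and 5.65.

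The doses themselves differed at day 6 for few HOX genes. In WSU-DLCL2 1 HOX gene was called between 10xLCC and LCC, HOXC6 by 0.74 ± 0.11 (limma adjusted p = 6.8e-05), against 13.0% of all genes. In SU-DHL6 2 were called against 27.3%, HOXB3 by 0.45 ± 0.13 and HOXC4 by 0.26 ± 0.09. In Karpas422 2 were called against 18.2%, HOXB5 by 0.36 ± 0.09 and HOXC4 by 0.32 ± 0.10. In Pfeiffer 0 were called against 1.38%, with 5 at an unadjusted p below 0.05. HOXB7 was lower at 10xLCC than at LCC in WSU-DLCL2 by a difference of -0.22 ± 0.08 that did not pass (adjusted p = 0.074). The SU-DHL6 count was 4 without DMSO day 2 replicate A and 0 without LCC day 6 replicate B, and leaving out 10xLCC replicate A or C gave 1. In Karpas422 it was 1 without LCC replicate B or 10xLCC replicate B, and 4 without LCC replicate C. In WSU-DLCL2 it was 2 without 10xLCC replicate A or C, and the Pfeiffer count was 7 without LCC replicate A and 3 without LCC replicate C. Both of these Pfeiffer fits keep LCC day 6 replicate B, the array at a distance of 0.706 from its group mean. For the fits with left-out arrays the share of all genes called is not given here. Centring on bright genes moved the share of rises among all calls between doses from 52.6% to 63.5% in Karpas422, from 42.8% to 65.5% in SU-DHL6, from 30.3% to 62.3% in WSU-DLCL2 and from 96.9% to 69.2% in Pfeiffer.

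Whether the response of Pfeiffer differed from that of the Y641 lines was tested directly on the arrays of all lines. At day 6 of 10xLCC 5 HOX genes had a smaller change in Pfeiffer than the mean of the 3 Y641 lines and 0 had a larger one, and 26.6% of all genes differed. HOXB3 changed by 1.25 on average in the Y641 lines and by 0.40 in Pfeiffer, a difference of -0.85 ± 0.20 (limma adjusted p = 4.2e-04). HOXC6 changed by 0.60 and -0.10, a difference of -0.70 ± 0.15 (adjusted p = 1.1e-04). HOXB7 changed by 0.49 and -0.10, a difference of -0.59 ± 0.13 (adjusted p = 1.2e-04). For HOXC4 the difference was -0.40 ± 0.13 and for HOXB4 -0.26 ± 0.09. Both of the latter were lost without replicate A or without replicate C of all groups, which left 3 genes, and HOXB4 also without replicate B or with the beta-actin covariate. The count was 5 without Pfeiffer LCC day 6 replicate B. Pfeiffer is 1 line, so its lack of the Y641 mutation cannot be told apart from anything else particular to it.

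Cofactors and regulators of HOX genes and the other transcripts of the clusters were read in the comparison of 10xLCC with DMSO at day 6. Of all genes 18.4% rose and 19.2% fell in Karpas422, 19.8% and 26.7% in SU-DHL6, 17.0% and 19.2% in WSU-DLCL2, and 0.164% and 0.0581% in Pfeiffer, and the counts of each list are to be read against these shares. The beta-actin ratio differed between the groups compared, from -0.18 with DMSO to 0.34 with 10xLCC in SU-DHL6 and from 1.25 to 2.25 in Karpas422. So the lists were also fitted with that ratio as a covariate, an alternative added after the data were seen. Ratio and treatment moved together in SU-DHL6, so a call lost there cannot be assigned to either. With the covariate 18.5% of all genes rose and 17.8% fell in Karpas422, and 5.95% and 2.92% did in SU-DHL6. Of 8 cofactors measured at day 6 of 10xLCC, 3 rose and 2 fell in Karpas422 (median change 0.23), 3 rose and 1 fell in SU-DHL6 (0.26), 1 rose and 2 fell in WSU-DLCL2 (0.03), and 0 were called in Pfeiffer by limma (0.05), with 0 at an unadjusted p below 0.05. PBX3, which binds DNA with HOX proteins, rose in all 3 Y641 lines, by 1.70 ± 0.11 in Karpas422, 1.65 ± 0.15 in SU-DHL6 and 1.26 ± 0.11 in WSU-DLCL2, and differed by 0.06 ± 0.19 in Pfeiffer. MEIS1 rose in SU-DHL6 by 1.18 ± 0.16 and in Karpas422 by 1.25 ± 0.14, and differed by 0.44 ± 0.22 in WSU-DLCL2 without passing. PBX4 rose by 0.96 ± 0.23 in Karpas422 and 0.44 ± 0.12 in SU-DHL6, whereas in WSU-DLCL2 it fell by 1.07. MEIS2 fell by 0.35 in SU-DHL6. With the covariate 1 cofactor was called in SU-DHL6 in place of 4, PBX3 at 1.71 ± 0.34, while MEIS1 there differed by 0.43 ± 0.34 (limma adjusted p = 0.55), PBX4 by 0.27 ± 0.28 (0.68) and MEIS2 by -0.32 ± 0.17 (0.3). In Karpas422 5 were called with it as without it, 4 of them the same genes, and PBX3, MEIS1 and PBX4 kept their calls there.

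Among 25 measured regulators of HOX genes, Polycomb and Trithorax proteins and other chromatin factors, 10 rose and 4 fell in Karpas422 (median change 0.18), 8 rose and 5 fell in SU-DHL6 (0.15), 4 rose and 8 fell in WSU-DLCL2 (-0.04), and 0 were called in Pfeiffer by limma (0.03), with 1 at an unadjusted p below 0.05. CBX7, a Polycomb reader of methylated histone H3, rose by 1.97 ± 0.12 in Karpas422, 2.17 ± 0.10 in SU-DHL6 and 1.08 ± 0.11 in WSU-DLCL2. EZH1, the relative of EZH2, rose by 0.51 ± 0.09, 1.35 ± 0.10 and 0.76 ± 0.11 in the same order of lines. AFF1, a partner in transcription elongation complexes, rose by 4.16 ± 0.12, 1.25 ± 0.13 and 1.17 ± 0.22. CBX2, another Polycomb subunit, fell by 1.04 in WSU-DLCL2 and by 1.07 in Karpas422. With the covariate 4 regulators were called in SU-DHL6 in place of 13, 4 rises and 0 falls, and 13 in Karpas422 in place of 14. CBX7, EZH1 and AFF1 kept their calls with it in all 3 Y641 lines, in SU-DHL6 at 2.09 ± 0.23, 0.99 ± 0.20 and 1.32 ± 0.29.

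Few other transcripts of the clusters were called, from a list of noncoding RNAs that also holds PRAC1, a gene that encodes a small protein, and none read at least log2 8 on all arrays of a line. In SU-DHL6 3 of 11 tested fell (median change -0.29), in Karpas422 1 of 11 rose and 1 fell (0.02), and by limma 0 of 10 were called in WSU-DLCL2 (-0.03) and 0 of 12 in Pfeiffer (-0.10), with 0 and 1 at an unadjusted p below 0.05. The 3 that fell in SU-DHL6 were HAGLROS by 0.37, HOXB-AS3 by 0.39 and PRAC1 by 0.29, and in Karpas422 HOXA-AS2 rose by 0.34 ± 0.12 and HOXA-AS3 fell by 0.38. With the covariate none of these 5 calls was kept: 0 were called in SU-DHL6 by limma, with 1 at an unadjusted p below 0.05, HOTTIP was called in Karpas422 at -0.48 ± 0.13 and HAGLROS in Pfeiffer at -0.51 ± 0.11. Antisense and sense transcripts that overlap can share probes. Genes that flank the clusters changed in both directions. Of 28, 7 rose and 7 fell in Karpas422 (median change -0.01), 7 rose and 10 fell in SU-DHL6 (-0.04), 7 rose and 9 fell in WSU-DLCL2 (-0.02) and 0 were called in Pfeiffer by limma (0.06), with 1 at an unadjusted p below 0.05. CALCOCO1, near the HOXC cluster, rose by 1.16 ± 0.11 in Karpas422, 1.17 ± 0.12 in SU-DHL6 and 0.59 ± 0.12 in WSU-DLCL2. For ATP5MC1, near the HOXB cluster, the called changes in that order were -1.22, -0.63 and -0.34, and for AGPS, near the HOXD cluster, -1.69, -1.17 and -0.73. With the covariate 3 flanking genes were called in SU-DHL6 in place of 17, CALCOCO1 among them at 0.93 ± 0.27, while ATP5MC1 there differed by -0.47 ± 0.19 (limma adjusted p = 0.15) and AGPS by -0.36 ± 0.25 (0.47). In Karpas422 13 were called in place of 14, and all 3 named genes kept their calls.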

How the data were processed

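Gene expression of 4 lymphoma cell lines was measured on one-colour Affymetrix arrays of 54675 probe sets. The authors deposited 1 table of linear intensity per probe set, and the submitters' processing notes name GCRMA, with its version not given in the sources used here. That method removes background and, in its usual form, normalizes arrays to one another, so an overall rise or fall of RNA may not be seen and changes of dim probe sets can be compressed. In the deposited table intensity ran from 5.79 to 31846, and log2 was taken with a pseudocount of 0. Of the probe sets 41097 named 1 gene, 1801 several and 11777 none in the platform annotation; 19738 of the 19775 genes matched RefSeq, and 3 HOX probe sets that name several genes were left out. Of the 28 HOX genes 15 have 1 probe set. The number of arrays limits the precision.

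Models were fitted with limma 3.58.1 in R 4.3.3 (lmFit, eBayes, two-sided), per line over 9 groups and 27 arrays, over the 36 DMSO arrays for untreated lines, and over all arrays for Pfeiffer against the Y641 lines. Genes entered with a log2 intensity of at least 4 on at least 3 arrays of the fit. Replicates of 3 against 3 arrays cannot give an exact permutation p below 0.1, so adjusted p-values come from limma across all genes. On simulated data for Karpas422 at day 6 (18873 genes) it recovered 97 of 100 genes shifted by log2 1 and 58 of 100 shifted by 0.5, with 15 false calls and 0 of the wrong sign. The simulation drew independent noise and shifted only these genes, whereas 18.4% of all genes rose and 19.2% fell in the measured comparison. Its rates need not hold there. Array values are given for HOX genes called at day 6 in any line and for the 8 with the largest untreated range among those called. Of each other list, at most 4 genes are named, by the smallest p. The members and all lists were chosen with earlier results of these data known. Alternatives were the filter, the probe set rule, centring on bright genes, the variance estimate, a replicate block, the 3′ to 5′ beta-actin ratio as a covariate, left-out arrays and the compared groups alone; leaving out SU-DHL6 DMSO day 2 replicate A, and the covariate for the other gene lists, were added after the data were seen.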

Additional observations from a re-analysis of the deposited data

Results flagged for a closer look

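For 5 HOX genes the 10xLCC change at day 6 differed between Pfeiffer and the mean of the Y641 lines by a test of the difference itself (limma, arrays of all lines). The difference, Pfeiffer minus the Y641 mean, was -0.85 for HOXB3, -0.26 for HOXB4, -0.59 for HOXB7, -0.40 for HOXC4 and -0.70 for HOXC6. Of all genes 26.6% differed by the same test. The calls for HOXB4 and HOXC4 were lost without replicate A or without replicate C of all groups.

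For HOXB5 and HOXB7 every 10xLCC array lay above DMSO in 1 or more lines and below DMSO in another at day 6, and each of these differences between single lines was not tested. HOXB5 changed by 0.27 in Karpas422 and -0.17 in SU-DHL6. HOXB7 changed by 0.55 in Karpas422, 0.66 in SU-DHL6 and 0.26 in WSU-DLCL2, and by -0.10 in Pfeiffer.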

How the results depend on the processing

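Over 365 alternative values of the 21 called changes at day 6 of 10xLCC, 291 kept their call, 74 lost it and 0 reversed. HOXB3 and HOXC6 in WSU-DLCL2 and HOXB3, HOXB4, HOXB7 and HOXC4 in Karpas422 were called in all 17 alternatives, HOXB3 between 0.49 and 0.90 and between 1.10 and 2.34. None of these alternatives read HOXB3 from its second probe set alone. The cause of the changes listed next was not tested.

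The counts in this paragraph and the ranges in the next stand without the share of all genes called under the same setting. They do not show whether HOX calls changed more or less than those of other genes. The counts below are of HOX genes called. With the mean of probe sets they were 2 between doses and 1 over untreated days in WSU-DLCL2, and 1 between doses in Karpas422. With arrays centred on bright genes they were 4 at day 6, 0 over untreated days and 6 in any dose comparison in SU-DHL6, and 6 over untreated days in Karpas422. With the 3′ to 5′ covariate they were 0 at day 6, 0 between doses and 3 in any dose comparison in SU-DHL6, and 4 between doses and 1 over untreated days in Karpas422. With the filter at log2 6 they were 1 over untreated days in Karpas422 and 11 between untreated lines. With the 2 groups alone they were 1 between doses in SU-DHL6 and 0 in Karpas422. Without SU-DHL6 DMSO day 2 replicate A, chosen after seeing the data, they were 4 between doses and 0 over untreated days in SU-DHL6.

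Leaving out replicates gave ranges of 3 to 6 in WSU-DLCL2, 3 to 10 in SU-DHL6 and 5 to 6 in Karpas422 at day 6. Between doses the ranges were 1 to 2, 0 to 4, 0 to 4 and, in Pfeiffer, 0 to 7. Over untreated days they were 0 to 0 in SU-DHL6 and 0 to 3 in Karpas422. In any dose comparison they were 3 to 13 in SU-DHL6 and 5 to 7 in Karpas422, for Pfeiffer against the Y641 lines 3 to 5, and between untreated lines 12 to 21.

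Same-lettered arrays did not deviate together: 18 of 72 correlations of deviations exceeded 0.1, with a median of -0.011, and in 0 of 24 sets did every pair. The letters share only a name, and a replicate block gave the same counts at day 6 of 10xLCC as no block: 7 in Karpas422, 9 in SU-DHL6, 5 in WSU-DLCL2 and 0 in Pfeiffer. Background correction can compress low signals, so changes of the dim HOXD genes and HOXA2 may be understated.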
